A study of Mus musculus with 9 samples.

Results

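The matrix metalloproteinases (MMPs) and their tissue inhibitors (TIMPs) were examined in clones of primary cells grown from pancreatic tumors of WTg mice. The set held 7 MMPs (Mmp2, Mmp3, Mmp9, Mmp12, Mmp13, Mmp14 and Mmp19) and 3 TIMPs (Timp1, Timp2 and Timp3). Their rows were found by gene symbol, and the set itself was chosen with earlier results of these data known. All 10 were found among the 18049 genes listed, and all 10 had a mean over the clones of 10 normalized counts or more, the filter for testing. MMPs are zinc-dependent endopeptidases that cut collagens, elastin, laminins and other proteins around the cell, and most are secreted as inactive proenzymes. TIMPs block their active site. Stromal fibroblasts and macrophages are known sources of both in pancreatic tumors, where turnover of the dense matrix is a feature of the tissue.

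RNA-sequencing covered 9 WTg clones, all of 1 condition, so no treated or control group entered any comparison. Every clone carried the genotype EL1-Luc/EL1-Tag x CAG-Mettl3: the Mettl3 open reading frame is driven by the ubiquitous CAG promoter, and the elastase I promoter, active in acinar cells, drives luciferase and the SV40 large T antigen. Tumor pieces were cultured, and colonies were picked with cloning cylinders, so that each sample was a culture grown from 1 colony. The labels give the treatment as none, although a protocol field names NMS-P937 at 80 nM for 24 h. The age, the sex and the mouse of origin of each clone were not given, and p-values therefore measure only the spread between these clones, some of which may share an animal.

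The depth, taken as the reads recovered over the genes listed, was between 12198037 and 20453901 reads, with a median of 18082577. Levels are given in normalized counts, that is, reads after the scaling of each library by the authors. The floor, set at 3 reads, was 3.79 to 6.56 normalized counts. Library names begin with A, B or C for the prefix of the column name, which the labels do not explain. Prefix A held 1 library, B held 4 and C held 4. Xist was between 29664 and 32912 normalized counts in the B libraries and at 0 to 8.39 in the others, whereas Ddx3y was at 0 in every B library and between 2376 and 2719.6 in the others, so prefix B and the sex of the cells cannot be told apart. Library A1 had the lowest depth and also stood apart in Mettl3, with 2184 normalized counts against 468 to 621 in the other 8. The cell type is labelled as fibroblasts. Of 14 fibroblast markers 13 were over the floor in every library, with Col1a1 between 37439 and 164208 normalized counts, while Lum was between 0 and 68.0. Dcn and Lum ran against the rest, with B means 3.66 and 6.82 times the C means. All 16 macrophage markers were over the floor in every library, with Csf1r between 20587 and 59537. Of 6 listed epithelial markers Epcam was at 0 in all 9 libraries, Cdh1 and Krt19 were over the floor in all, at 8.91 to 152 and 7.23 to 145, and Krt7 was between 0 and 158. Of 6 acinar markers Cela1 was over the floor in all (144 to 293), and the other 5 were highest in C3, with Ctrb1 at 610.0 and Prss2 at 554 there. The 16 macrophage markers took 2.82% of all normalized counts (range 2.21% to 3.43%) and the 14 fibroblast markers took 1.24% (range 0.511% to 2.23%). Of 8 neutrophil markers 1 was listed, S100a8, with at most 9.68e-05% of the counts. In bulk RNA, fewer cells of a type and less RNA per cell cannot be told apart.

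Among the 10 genes, Mmp13, Mmp12 and Mmp3 lie in this order on chromosome 9, within 183 kb (GRCm38.p6, 7272514 to 7455975). All 10 are protein-coding genes. RefSeq windows upstream of the start site were matched for 7 of the 10 genes, in 8 windows, since Mmp12 had 2. Mmp2, Mmp9 and Mmp19 are named only. The 150 bases before the start are shown for the 3 clustered genes, because 1 of them, Mmp3, varied most across the clones, and for Timp3, the inhibitor that varied most. All 4 windows lie on the plus strand of GRCm38.p6, at chr9:7445672-7445821 for Mmp3, chr9:7347224-7347373 for the second window of Mmp12, chr9:7272364-7272513 for Mmp13 and chr10:86300262-86300411 for Timp3. Capitals mark the letters TGANTCA, the site bound by AP-1 (Fos and Jun proteins), TATAAA, the TATA box, and GGGCGG, the GC box bound by Sp1, each searched on both strands.
Mmp3: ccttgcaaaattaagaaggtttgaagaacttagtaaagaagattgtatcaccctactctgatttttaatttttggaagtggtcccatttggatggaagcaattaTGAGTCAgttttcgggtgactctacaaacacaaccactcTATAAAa
Mmp12: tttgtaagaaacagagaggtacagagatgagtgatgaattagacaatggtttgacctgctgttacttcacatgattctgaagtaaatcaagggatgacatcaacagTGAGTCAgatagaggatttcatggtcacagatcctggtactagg
Mmp13: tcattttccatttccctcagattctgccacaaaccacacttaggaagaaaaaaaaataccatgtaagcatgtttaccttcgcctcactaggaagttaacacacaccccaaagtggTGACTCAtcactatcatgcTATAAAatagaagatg
Timp3: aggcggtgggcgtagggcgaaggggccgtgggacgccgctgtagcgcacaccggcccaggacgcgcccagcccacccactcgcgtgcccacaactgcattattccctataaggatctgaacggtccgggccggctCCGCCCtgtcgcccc

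The AP-1 letters lay 46 to 40 bases before the start of Mmp3 and 35 to 29 bases before that of Mmp13. For Mmp12 they lay 44 to 38 bases before the second start only. That second window lies inside the RefSeq span of Mmp12 (7344397 to 7360461). The AP-1 letters were present in 3 of the 8 windows of MMP and TIMP genes and in 6.75% of all 32851 windows of 250 bases. The first Mmp12 window, which ends at 7344396 just before that span, held none. The windows of Mmp14, Timp1, Timp2 and Timp3 held none either. TATAAA lay 7 to 2 bases before the start of Mmp3 and 16 to 11 bases before that of Mmp13. It was found in 12.4% of all windows. GC box letters, present in 32.7% of all windows, were found for Mmp14, Timp1, Timp2 and Timp3, and in none of the windows of the chromosome 9 genes. A match of letters is a description and not a shown binding site.

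The 10 genes varied more among the clones than a typical gene. The median of their SDs of log2(normalized counts + 1) over the 9 clones was 0.86, against 0.25 over all 14705 genes tested. It was similar, 0.84, for the 14 fibroblast markers and 0.81 for the 9 other MMPs tested, but 0.29 for the 16 macrophage markers. Mmp3 had the highest SD, 1.78, at the 97.4th percentile of the genes tested, followed by Timp3 with 1.23. At the other end, Timp2 had an SD of 0.21, at the 42.1st percentile, and Mmp19 one of 0.32, at the 59.2nd. Together the 7 MMPs took 0.0936% ± 0.0214 (SD, n = 9) of all normalized counts and the 3 TIMPs took 0.351% ± 0.116 (SD, n = 9). Library A1 held both the highest MMP share (0.126%) and the lowest TIMP share (0.198%) of the 9. The next were close, C1 with an MMP share of 0.122% and C3 with a TIMP share of 0.226%. In A1 Timp3 was 0.119 times the mean of the other 8, whereas Timp1 and Timp2 were 0.855 and 0.906 times theirs. Normalized counts were not corrected for transcript length, so levels were not compared between genes.

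**Figure D1:**
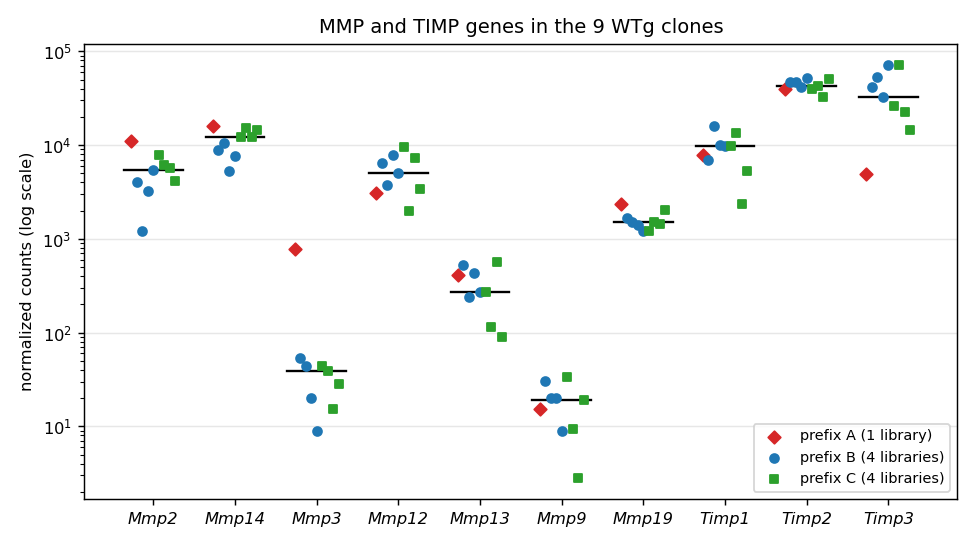
Normalized counts (y axis, log scale) of the 7 MMP and 3 TIMP genes (x axis) in each of the 9 WTg clones. Points are libraries, coloured by the prefix of the column name, and black bars are medians. Mmp3 is at 783 in the prefix A library and at 8.83 to 53.4 in the other 8, whereas Timp2 stays between 32376 and 51411.

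Mmp2, gelatinase A, cuts denatured collagen and basement membrane collagen and is a typical product of fibroblasts. Its level was between 1198 normalized counts in B2 and 10979 in A1, with a median of 5435, a mean of 5415 ± 2825 (SD, n = 9) and a 9.17-fold range. A1 exceeded the mean of the rest 2.33-fold, and the ranges of the B and C libraries overlapped. Mmp14, the membrane-bound protease that activates the Mmp2 proenzyme at the cell surface, was at 16099.6 in A1. The B libraries had 8803, 10449.5, 5346 and 7696 normalized counts of Mmp14, and the C libraries had 12053, 15029.6, 12095 and 14611. Every B library was below every C library. The mean over the C libraries (13447 ± 1595, SD, n = 4) was 1.67 times that over the B libraries (8074 ± 2141, SD, n = 4). Mmp14 was 1 of 10 MMP and TIMP genes with this order, beside 4.55% of all genes tested, and none of the 10 had every B library above every C library, beside 5.74% of all genes tested.

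Mmp3, stromelysin-1, has a broad range of substrates and activates other proMMPs. A1 had 783 normalized counts (358 reads, 95% Wilson interval 706 to 869). The B libraries had 53.4, 44.1, 20.3 and 8.83 and the C libraries had 44.0, 39.0, 15.4 and 28.1. Thus 1 clone was far above the rest, 24.8 times the mean of the other 8 (31.6 ± 15.9, SD, n = 8), and the B and C ranges overlapped. Of 14705 genes tested, 9 (0.0612%), Mmp3 among them, were at least as far above the other 8 libraries in A1. Mmp12, macrophage elastase, lay between 1962 in C2 and 9469 in C1, with a median of 4977 and a mean of 5343 ± 2526 (SD, n = 9). A1, with 3055, was below the median, and Mmp12 differed 4.83-fold between the extremes. Mmp13, collagenase-3, a main fibrillar collagenase of rodents, was between 90.1 in C4 and 561 in C3, with a median of 274 and a mean of 325 ± 168 (SD, n = 9). Here the C libraries held both extremes, so that they spanned the whole range of the B libraries.

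Mmp9, gelatinase B, which is abundant in neutrophils, was near the limit of detection. It had 2 to 26 reads per library, with 2.80 normalized counts in C3, a median of 19.2 and 33.6 in C1. The level was above the floor in 8 of the 9 libraries, and with so few reads its values carry a large counting error. Mmp19, which cleaves basement membrane proteins, was the MMP with the smallest spread, between 1217 in C1 and 2350.3 in A1, with a median of 1514 and a mean of 1599 ± 375 (SD, n = 9). A1 was 1.56 times the mean of the other 8, and these 8 lay within 1217 to 2035.

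Timp1, a secreted inhibitor of most soluble MMPs, was between 2369.8 normalized counts in C3 and 16063 in B2, with a median of 9769 and a mean of 9069 ± 4093 (SD, n = 9). C3 was the low clone, and the second lowest, C4, had 5343. C3 was also the clone with the most acinar marker counts (0.00955% of all normalized counts), whose part in its values was not tested. Timp2, which inhibits Mmp2 and also bridges proMmp2 to Mmp14 for activation, differed only 1.59-fold, between 32376 in C3 and 51411 in B4, around a mean of 43623 ± 6045 (SD, n = 9; coefficient of variation 13.9%). Timp3, which stays bound to the matrix and also inhibits Adam17, was at 4972 in A1 (95% Wilson interval 4772 to 5181). The B libraries had 42069, 53011, 32880.0 and 72001 normalized counts of Timp3 and the C libraries had 26113, 71891, 22449 and 14488. A1 was the lowest, and the mean of the other 8 (41863 ± 22004, SD, n = 8) was 8.42 times its level, while the B and C ranges overlapped. Of 14705 genes tested, 363 (2.47%), Timp3 among them, were at least as far below the other 8 in A1.

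Across these genes, A1 was the highest of all 9 libraries for 4 of the 10 (Mmp2, Mmp3, Mmp14 and Mmp19), beside 19.9% of all genes tested, and the lowest for 1 (Timp3), beside 20.4%. A1 is 1 library with no replicate, and the part of its depth, prefix and Mettl3 level in these values was not tested.

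**Figure D2:**
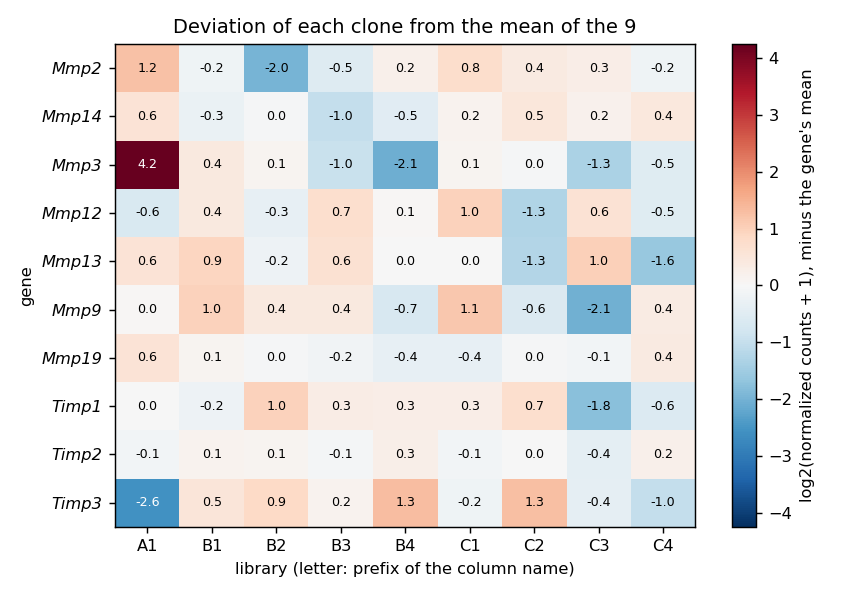
Deviation of each clone from the mean of the 9 for each gene, in log2(normalized counts + 1), with genes as rows, libraries as columns, and red above and blue below the mean. Mmp3 stands out as high and Timp3 as low in A1, Mmp2 is lowest in B2, and Timp1 is lowest in C3.

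The question of which cell type's markers the protease genes follow was addressed by regressing each gene on a fibroblast score and on a macrophage score, the mean z-scores of 14 and 16 marker genes. The scores themselves ran against each other (Pearson's r = -0.752, exact permutation p = 0.0208; Spearman's rho = -0.733, exact permutation p = 0.0311; n = 9). Mmp14 rose with the fibroblast score by 0.47 on the log2 scale per SD of the score (SE 0.076, adjusted p = 0.0124, limma). It was the single call among the 10 genes, beside 9.53% of all 14691 genes tested. Its adjusted p was 0.0827 (slope 0.32) without B3, the library with the lowest score and the lowest Mmp14. With the prefix as a term, fitted on the B and C libraries only, the adjusted p was 0.494 (slope 0.32). Mmp12 had a slope of -0.52 (adjusted p = 0.0847, limma), Mmp2 of 0.52 (adjusted p = 0.176), Mmp3 of 0.96 (adjusted p = 0.217) and Timp3 of -0.60 (adjusted p = 0.269), none of which passed the threshold of 0.05. The slopes of the remaining 5 genes lay between -0.37 for Mmp9 and 0.20 for Mmp19. Timp2 had a slope of -0.037 (SE 0.077).

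For the macrophage score, 0 of the 10 genes passed with limma, beside 12.9% of all 14689 genes tested. At an unadjusted p under 0.05 (limma) there were 2 of the 10, beside 4667 of all 14689. With voom on the recovered reads 0 of the 10 passed as well. The 2 genes were Mmp2, with a slope of -0.56 (SE 0.23, adjusted p = 0.132), and Mmp14, with a slope of -0.39 (SE 0.11, adjusted p = 0.0532). Over the alternatives the adjusted p of Mmp14 was between 0.0315 and 0.693. Mmp12, known as a macrophage product, had a slope of 0.35 (SE 0.22, adjusted p = 0.305), and Mmp9 had the same slope (0.35, SE 0.33, adjusted p = 0.492).

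**Figure D3:**
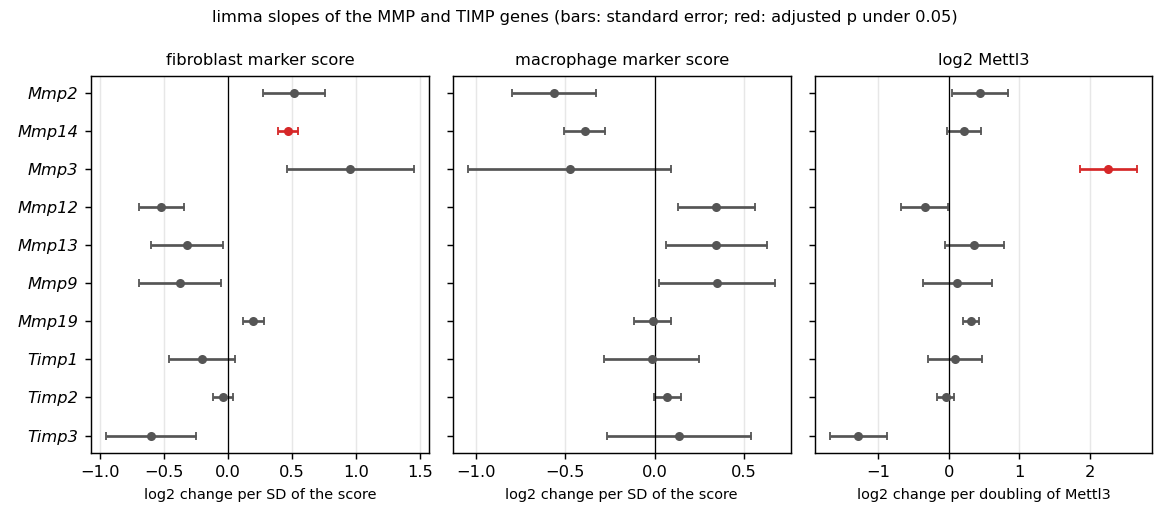
Slopes (x axis, change of the log2 level per SD of the score or per doubling of Mettl3) of the 10 genes (y axis) on the fibroblast score, the macrophage score and log2 Mettl3, with standard errors as bars and calls at an adjusted p under 0.05 in red (limma, 9 clones). Mmp14 is called on the fibroblast score and Mmp3 on Mettl3.

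Mettl3, the m6A methyltransferase that the transgene encodes, was measured at a level that differed among the clones mainly by A1. Mmp3 rose by 2.26 on the log2 scale per doubling of Mettl3 (SE 0.41, adjusted p = 0.0193, limma). It was 1 call of 10, beside 2.63% of all 14704 genes tested. Without A1 the slope was 0.65 with an adjusted p of 0.895, so that the call rested on this library. Timp3 had a slope of -1.28 (SE 0.40, adjusted p = 0.156) and Mmp19 of 0.32 (SE 0.11, adjusted p = 0.216). Without A1 the slope of Timp3 was 1.43.

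**Figure D4:**
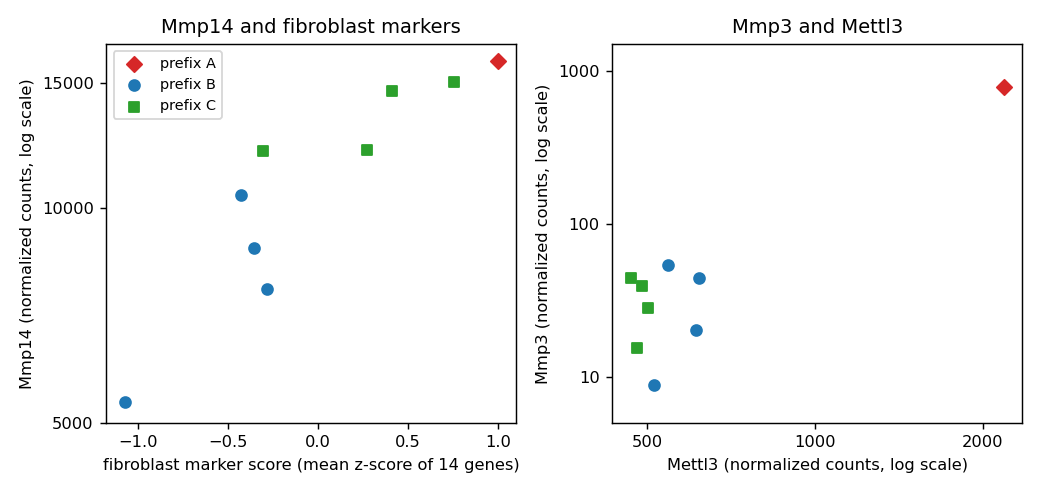
Left, Mmp14 (normalized counts, log scale) against the fibroblast marker score; right, Mmp3 against Mettl3 (normalized counts, both axes on a log scale), with 1 point per clone and colours for the prefix. Mmp14 increases from 5346 in B3, at a score of -1.07, to 16099.6 in A1, at 0.997, and the single clone with high Mettl3 (2184) is the one with high Mmp3 (783).

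Enzymes and inhibitors that act on each other, and the chromosome 9 genes Mmp3, Mmp12 and Mmp13, were compared across the clones in 7 pairs. Exact two-sided permutation tests were used, with Benjamini-Hochberg adjustment over the 7. No pair passed, and the lowest adjusted p was 0.352. Mmp2 and Mmp14 had r = 0.418 (exact permutation p = 0.262, adjusted 0.514) and rho = 0.683 (exact permutation p = 0.0503, adjusted 0.352). Without the 2 clones farthest from the median r was 0.585, but centred within prefixes B and C it was -0.487. Mmp2 and its inhibitor Timp2 had r = -0.363 (exact permutation p = 0.328, adjusted 0.514) and rho = -0.483 (exact permutation p = 0.194, adjusted 0.452). Mmp14 and Timp2 had r = -0.180 (exact permutation p = 0.636, adjusted 0.742) and rho = -0.317 (exact permutation p = 0.410, adjusted 0.648), with r = 0.524 within prefixes.

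Mmp12 and Mmp13, of the chromosome 9 cluster, had r = 0.646 (exact permutation p = 0.0626, adjusted 0.438). Their rho was 0.533 (exact permutation p = 0.148, adjusted 0.452), and their r was the highest of the 7 pairs. It was 0.636 without the 2 farthest clones and 0.799 within prefixes (exact permutation p = 0.0990). Mmp3, the third gene of the cluster, had r = -0.356 to Mmp12 (exact permutation p = 0.367; rho = -0.283, exact permutation p = 0.463) and r = 0.130 to Mmp13 (exact permutation p = 0.745; rho = -0.0667, exact permutation p = 0.880). The difference between these correlations was not tested. Mmp9 and Timp1, its usual inhibitor, had r = 0.531 (exact permutation p = 0.146, adjusted 0.511) and rho = 0.167 (exact permutation p = 0.678, adjusted 0.791), and r was -0.286 without C3, where both genes were lowest. For this pair, the value without the 2 farthest clones was -0.313.

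The other MMPs were taken from a list of 17 genes that also held Timp4. Of these 10 were listed and 9 tested. Mmp10, stromelysin-2, was, like Mmp3, far higher in A1, with 1074 normalized counts against 18.9 to 229 in the other 8. Mmp8, neutrophil collagenase, was at 980.3 in A1 and between 73.4 and 837 in the others, and Mmp27 was at 50.3 in A1 and between 95.2 and 408 in the others. With the fibroblast score, on which 9.53% of all genes tested were called, 2 of the 9 rose, Mmp11 (stromelysin-3, slope 0.56, adjusted p = 0.0122, limma) and Mmp23 (slope 0.68, adjusted p = 0.0187), and Mmp27 fell (slope -0.86, adjusted p = 0.0145). With the macrophage score (12.9% of all genes tested) Mmp27 rose (slope 0.76, adjusted p = 0.0397, limma) and Mmp17, a membrane-anchored MMP, fell (slope -0.39, adjusted p = 0.0350). With Mettl3 (2.63% of all genes tested) 0 of the 9 passed in limma, while voom on the recovered reads called 1. Mmp10 (slope 2.03, adjusted p = 0.0901) was the 1 of 9 with an unadjusted p under 0.05 in limma, beside 2203 of all 14704 genes. The means of the remaining 3 tested, Mmp15, Mmp16 and Mmp28, were 26.1, 116 and 190.1. Among the 9, every B library was below every C library for Mmp23 only, beside 4.55% of all genes tested. The reverse order held for Mmp27 only, beside 5.74%.

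Of 7 tested regulators and partners of MMPs, 3 rose with the fibroblast score and 0 fell, beside 9.53% of all genes called in either direction. These were the thrombospondins Thbs1 (slope 0.61, adjusted p = 0.0233, limma) and Thbs2 (slope 1.36, adjusted p = 0.0281), which mediate uptake of Mmp2 by Lrp1, and Cd44 (slope 0.18, adjusted p = 0.0321), the hyaluronan receptor that anchors Mmp14 and Mmp9. Thbs2 was between 2029.6 in C1 and 72652 in A1. Of the 13 ADAM and ADAMTS proteases, relatives of the MMPs of which several are inhibited by Timp3, 4 rose with the fibroblast score and 0 fell (9.53% of all genes), among them Adamts2, the procollagen N-proteinase (slope 1.10, adjusted p = 0.00939, limma), and Adamts12 (slope 0.83, adjusted p = 0.0303). With the macrophage score, beside 12.9% of all genes, 1 of the 13 rose (Adam17, slope 0.11, adjusted p = 0.0328, limma) and 3 fell (Adamts1, Adamts5 and Adamts12), and voom called 3 of the 13 in all. Of the 7 regulators, 0 passed with the macrophage score in limma or voom (12.9% of all genes in limma). In limma 2 of the 7 had an unadjusted p under 0.05, beside 4667 of all 14689 genes. With Mettl3 0 of the 7 regulators and 0 of the 13 proteases passed in either (2.63% of all genes in limma). At an unadjusted p under 0.05 (limma) there were 1 and 0 of these, beside 2203 of all 14704 genes. Every B library was below every C library for 2 of the 7 regulators (Cd44 and Thbs1) and 5 of the 13 proteases. This order held for 4.55% of all genes tested, and Adamts1 and Adamts12 were among the 5. The reverse order held for 0 of the 7 and 1 of the 13 (Adam17), beside 5.74% of all genes tested. With the prefix as a term, 3 genes of the whole table were called on the fibroblast score and 0 on the macrophage score (2431 at an unadjusted p under 0.05, limma), and without B3 the fibroblast score called 30.

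The site letters of AP-1 were present in a window of each of the 3 chromosome 9 genes, for Mmp12 only the second. The AP-1 subunits were called on Mettl3 in 2 of 7 cases, beside 2.63% of all genes tested. Fos rose (slope 1.26, adjusted p = 0.0239, limma), with 4692 normalized counts in A1 against 388 to 1386 in the others, and Jund fell (slope -0.51, adjusted p = 0.00245), with 1674 in A1 against 3324 to 3997. Without A1, 0 genes of the whole table were called on Mettl3 (1630 at an unadjusted p under 0.05, limma). Mmp3 was highest in A1, as were Fos, Fosb and Junb, 3 of the 7 subunits, beside 19.9% of all genes tested. Jund was lowest there, 1 of the 7, beside 20.4%. Mmp12 and Mmp13, with the same letters in a window (for Mmp12 only the second), were at 3055 and 414 in A1. Both were within the ranges of the other 8. Any tie between the subunits and these genes was not tested. With the macrophage score (12.9% of all genes tested) Fosl1 fell (slope -0.43, adjusted p = 0.0452, limma). With the fibroblast score (9.53% of all genes in limma) 0 of the 7 passed in limma or voom. In limma 2 of the 7 had an unadjusted p under 0.05, beside 4551 of all 14691 genes.

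The genes whose pattern over the 9 clones was most like that of each gene were listed by Pearson's r of log2 levels, as a description. For Mmp14 they were Atp10a (r = 0.982, n = 9), Rrad (0.976) and Ddah2 (0.975), and for Mmp13 Pcf11 (0.986), Abcb8 (0.968) and Ric8b (0.961). For Mmp12 they were Cmpk1 (0.960), Brme1 (0.955) and Lin7c (0.952). For Mmp2 the nearest were Smpdl3b (0.948), Myorg (0.920) and Kctd20 (0.914). For Mmp3 they were Zfp317 (0.972), the pseudogene Eef1a1-ps1 (0.961), whose reads may be shared with its parent gene, and Sf3a3 (0.959), and these fell to 0.862, 0.930 and 0.777 without A1. For Mmp19 they were Rnf19a (0.956), Cd33 (0.956) and Pros1 (0.955), and for Mmp9 Rchy1 (0.936), Plscr1 (0.935) and Glmp (0.921). Timp1 was closest to Tfpi2 (0.983), an inhibitor of plasmin, then to Lyplal1 (0.949) and Tmem214 (0.946). Timp2 was closest to Slc35e3 (0.978), Tlcd1 (0.957) and Pard6b (0.931), and Timp3 to Syvn1 (0.965), Cog1 (0.962) and Tspan5 (0.962).

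Other genes overlap 5 of the 10 loci in RefSeq: Tmem198b overlaps Mmp19, Gm45472 overlaps Mmp2, Syn1 overlaps Timp1, Cep295nl overlaps Timp2 and Syn3 overlaps Timp3. The kit kept strand, but whether the counting used it was not given in the sources used here. The overlapping genes had means of 548 (Tmem198b), 16.0 (Gm45472), 161 (Syn1), 98.9 (Cep295nl) and 26.8 (Syn3) normalized counts.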

How the data were processed

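RNA-sequencing libraries of 9 WTg MPC clones (TruSeq stranded mRNA) were analysed. The submitters' processing notes name FastQC 0.11.9, STAR 2.7.10, RSEM 1.3.3 and the build GRCm38, without role or order, and the scaling software is not given in the sources used here. The authors deposited log2 values, made after scaling each library by 1 factor and adding an offset, whose lowest value is 2. The offset of 4 was inferred from that value. Normalized counts were obtained by undoing the log2 and subtracting 4. The spacing of low values gave the worth of 1 read, 1.26 to 2.19 normalized counts per library, and 100% of nonzero values under 1000 reads came out whole within 0.1 reads. The depth, the sum of these reads over the genes listed, was 12198037 to 20453901, and the floor is 3 reads. Wilson intervals (95%) and floors cover counting error only. The table also holds 6 columns of per-sample values for MEF libraries of other studies, which were not used, so WTg clones against MEFs were not analysed here. Library names number the columns within a prefix by name order and are names only, and no column was tied to 1 sample.

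Of the 18049 identifiers, 17975 matched the gene names, all 10 of the MMP and TIMP genes included. Members and gene lists were chosen with earlier results of these data known. limma (3.58.1 in R 4.3.3, lmFit and eBayes with a trend) was run on log2(normalized counts + 1) for genes averaging 10 normalized counts or more, with the fibroblast score, the macrophage score or log2 Mettl3 as the covariate, leaving out the score's own genes or Mettl3, with Benjamini-Hochberg adjustment over all genes tested and a threshold of 0.05. Fold changes on this scale understate those of low genes. The steps were tested on simulated data. Correlations of 7 pairs of genes were given exact two-sided permutation p-values, by enumerating every pairing. Pattern and prefix comparisons are descriptions without a test. Genes named are the 10, the other MMPs with a mean of at least 10, up to 4 genes of each other list (highest mean, largest SD or an association passed), the 3 genes most alike in pattern and the markers needed. Csf1r, Col1a1, Epcam, S100a8 and the genes that overlap the 10 loci were named for the checks they serve, and Adamts1, Adamts5, Adam17, Fosl1 and Plat after their values were seen. Promoter windows are from RefSeq on GRCm38.p6, 250 bases before the start, searched for letters only. Exon lengths and proteins were not used here. A result of the plasminogen list is not reported here. Alternatives were upper quartile and total scaling, a pseudocount of 0.1, a mean of at least 50, no filter, no trend, voom on recovered reads, prefix as a term (B and C libraries only), scores without z-scores and leaving out each clone. Scripts ran under Python 3.11.15 (scipy 1.17.1, pandas 2.3.3, matplotlib 3.10.9, numpy 2.4.6).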

Additional observations from a re-analysis of the deposited data

Results flagged for a closer look

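Mmp3 was flagged because a single clone, A1, lay far from the others: its gap to the next clone was 0.942 of the whole range over the 9 clones, above Dixon's 95% critical value for 9 values. Mmp10, another stromelysin, was flagged in the same clone with a gap of 0.801 of the range. These were the 2 flags among 19 genes looked at, the 10 MMP and TIMP genes and 9 other MMPs. A nominal rate of 1 in 20 would give 0.950 genes. That rate holds for independent, normally distributed values, and normalized counts are skewed. The share of all genes that would be flagged was not computed. A1 was the highest library for 19.9% of all genes tested and the lowest for 20.4%. On the log2(normalized counts + 1) scale, chosen after seeing the data, the gap was 0.609 of the range for Mmp3, over the critical value, and 0.387 for Mmp10, under it, and Mmp3 was the 1 gene of the 19 over it.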

How the results depend on the processing

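No paired analysis was possible because there was a single group of clones. The mean level of Mmp3 was 115 normalized counts over the 9 clones and 31.6 without A1. Of 497 slopes under alternatives, 462 kept their direction and their side of the threshold. In the main fits only Mmp14 (fibroblast score) and Mmp3 (Mettl3) were called, so most of these slopes started uncalled. An uncalled slope counted as kept if it stayed uncalled with the same sign. Mmp14 and Mmp3 remained called in 8 of 9 fits that left out 1 clone, the exceptions being B3 and A1. Without z-scores, Mmp14 had a slope of 0.43 on the fibroblast score (adjusted p = 0.0569, limma). Its slope on the macrophage score passed with the upper quartile (adjusted p = 0.0418, limma), a mean of at least 50 (0.0467), scores without z-scores (0.0315) and without C4 (0.0331). Mmp12 passed on the fibroblast score without C3.

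Genes called over the whole table depended more on the settings. On the fibroblast score there were 873 without a trend, 346 without z-scores and 3 with the prefix as a term, and 30 to 1840 when 1 clone was left out, with 274 without A1, 744 without B1, 30 without B3, 688 without B4 and 354 without C2. On the macrophage score there were 0 with the prefix as a term (2431 at an unadjusted p under 0.05, limma) and 100 to 2008 when 1 clone was left out, with 109 without B1, 612 without B3 and 100 without C2. On Mettl3 there were 238 with a mean of at least 50, 61 with voom and 0 with the prefix as a term (357 at an unadjusted p under 0.05, limma), and 0 to 492 when 1 clone was left out, with 0 without A1 (1630 at an unadjusted p under 0.05). The fits with the prefix as a term used the B and C libraries only, so A1, alone in its prefix, was left out of them. Otherwise the cause was not tested.

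With the prefix as a term, slopes turned on the fibroblast score for Mmp2 (-0.12), Mmp3 (-0.045), Timp1 (0.051), Timp2 (0.14) and Timp3 (0.59), on the macrophage score for Mmp19 (0.21), Timp2 (-0.042) and Timp3 (-1.11), and on Mettl3 for Mmp2 (-6.31) and Mmp13 (-2.42). With the upper quartile Timp1 turned on the macrophage score (0.0029). None of these was called in either fit. Leaving out 1 clone gave slopes on the macrophage score of -0.056 to 0.047 for Mmp19, -0.12 to 0.23 for Timp1 and -0.12 to 0.67 for Timp3, and slopes on Mettl3 of -4.74 to 0.56 for Mmp2, -0.096 to 2.29 for Mmp9, -0.48 to 0.042 for Mmp12, -2.12 to 0.27 for Mmp14, -0.092 to 2.62 for Timp1, -0.088 to 0.43 for Timp2 and -1.40 to 1.43 for Timp3. Correlations centred within prefixes turned for Mmp2 with Mmp14 (-0.487), Mmp14 with Timp2 (0.524) and Mmp3 with Mmp13 (-0.143), and without the 2 farthest clones for Mmp9 with Timp1 (-0.313) and Mmp3 with Mmp13 (-0.236). Leaving out 1 clone gave -0.286 to 0.664 for Mmp9 with Timp1 and -0.179 to 0.280 for Mmp3 with Mmp13. Depth limits Mmp9, with 2 to 26 reads, and the lowest Mmp3 values, at 7 reads.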

Other observations

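The plasminogen system, which activates several proMMPs, had 6 tested genes. None of the 6 passed on the fibroblast score in limma or voom, beside 9.53% of all genes tested in limma. On Mettl3 none passed in either, beside 2.63% in limma. In limma 1 of the 6 had an unadjusted p under 0.05 on the fibroblast score, beside 4551 of all 14691 genes. On Mettl3 it was also 1 of the 6, beside 2203 of all 14704 genes. Serpinb2, an inhibitor of plasminogen activators, varied most, from 10.3 normalized counts in C4 to 3753 in B1. Plat, tissue-type plasminogen activator, was at 2679 in A1 and between 337 and 1292 in the other 8.

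Ratios of 2 genes within a library, in normalized counts without length correction, were compared across the clones only and say nothing of which gene of a pair is the more abundant. Mmp2 to Timp2 was between 0.0256 in B2 and 0.275 in A1, a 10.7-fold range. Mmp14 to Timp2 was between 0.130 in B3 and 0.403 in A1, with a mean of 0.267 ± 0.0997 (SD, n = 9). Timp3 to Timp2 was between 0.124 in A1 and 1.67 in C2, a 13.4-fold range.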
